A study of Mus musculus with 6 samples.

Results

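The oxidative phosphorylation genes are the genes for the 5 enzyme complexes of the mitochondrial inner membrane that make ATP from oxygen. They were taken as the protein-coding features whose symbols begin with Nduf (complex I), Uqcr (complex III), Cox4 to Cox8 (complex IV) or Atp5 (ATP synthase), the 4 Sdh genes of complex II, and the mt- genes for Nd, Co, Cytb and Atp subunits. This gave 105 genes of 46983 features, of which 92 are nuclear and 13 are encoded by mitochondrial DNA. A further 4 processed pseudogenes with matching names were left out. The 105 genes were measured by RNA sequencing in oligodendrocytes, which wrap axons of the brain and spinal cord in myelin, taken from mouse brain without culture. The 3 Qk-KO libraries came from Plp-CreERT2 mice with floxed QK alleles, labelled Qk-/-, in which the Plp promoter drives a tamoxifen-inducible Cre recombinase, and the 3 wild-type (WT) libraries came from control mice whose alleles the labels do not spell out. All mice were FvB/C57BL6 hybrids that received tamoxifen at 8 weeks of age, controls included, and brains were taken 4 days later. Qk encodes quaking, an RNA-binding protein of myelin-forming cells. Since no label ties a library to a mouse of its own, p-values refer to the spread among these libraries, which may be technical.

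Complexes I and II pass electrons to ubiquinone, complex III passes them on to cytochrome c, and complex IV hands them to oxygen. Complexes I, III and IV pump protons, and ATP synthase uses the proton gradient to make ATP. Complex II is built from nuclear gene products alone, whereas the other complexes join nuclear subunits with subunits made inside the mitochondrion, where both strands of the DNA are transcribed as long precursors and cut into single messages. Differentiating oligodendrocytes are known for a high demand for ATP while they make myelin, and mature ones for their use of glycolysis.

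The per-library values behave as regularized log2 values (log2 of a normalized count, shrunk toward the mean of the gene when it has few reads). No source used here states this. Their libraries were not alike in ribosomal RNA. The features Gm42418, Gm26917, mt-Rnr1 and mt-Rnr2 held 63.2% to 64.8% of the signal in WT and 59.8% in Qk-KO replicate 1, but 2.23% and 1.88% in Qk-KO replicates 2 and 3. The 2 of these features that lie outside the mitochondrial DNA alone gave 52.97% to 57.7% in the first 4 libraries and 0.895% and 0.983% in the last 2. Approximate depth without ribosomal features was 8700000 to 13100000 reads in the 4 libraries rich in ribosomal RNA and 77100000 and 70000000 in Qk-KO replicates 2 and 3. Both low libraries were Qk-KO, so in them genotype and library type cannot be told apart. For this reason the main results are given also for Qk-KO replicate 1 against the 3 WT libraries, a contrast within 1 library type whose single Qk-KO library takes its spread from WT. Qk itself, summed over the gene, was 15.41, 15.67 and 15.31 in WT libraries and 16.10, 15.62 and 15.30 in Qk-KO, a sum that does not isolate the floxed part and so checks no label. The oligodendrocyte markers were detected in every library, with 6 of 10 higher in Qk-KO by limma and 4 in Qk-KO replicate 1 alone. Of the other cell types' markers, 9 of 10 astrocyte, 8 of 8 endothelial, 7 of 8 mural and 1 of 6 precursor markers were lower in Qk-KO, and 5 of 10 microglial and 2 of 8 neuronal markers were higher. In Qk-KO replicate 1 alone the counts were 9, 7, 7 and 1 lower, and 5 higher for microglia and 1 higher and 1 lower for neurons. With library type in the model no microglial marker was called. The summed log2 level of the 10 microglial markers was 12.83 to 13.46 in WT. It was 14.03, 14.15 and 16.02 in Qk-KO replicates 1, 2 and 3, so replicates 2 and 3 were not alike in it. In bulk RNA, fewer cells of a type and less RNA per cell cannot be told apart.

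The 13 mitochondrial genes lie close together on chromosome M, and some overlap, so that a short read can belong to both. A pair of such places is shown because each joins genes of 1 complex whose values are compared below. In each, the capitals mark the shared bases, which are 43 for mt-Atp8 and mt-Atp6 and 7 for mt-Nd4l and mt-Nd4 (mm10, GENCODE M21 transcripts, plus strand).
chrM:7912-7984, mt-Atp8 into mt-Atp6: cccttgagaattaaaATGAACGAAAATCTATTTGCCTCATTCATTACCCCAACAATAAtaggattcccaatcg
chrM:10152-10188, mt-Nd4l into mt-Nd4: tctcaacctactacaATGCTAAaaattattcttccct
In both stretches the shared bases open with the ATG of the downstream gene. On the opposite strand, mt-Nd6 (13552 to 14070) shares 14 bases with mt-Nd5 (11742 to 13565). Whether counting used strand is not given in the sources used here, so reads of mt-Nd6 and of RNA from the other strand cannot be told apart.

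The mitochondrial messages were near the WT level in Qk-KO replicate 1 and far lower in Qk-KO replicates 2 and 3. The mean log2 value over the 13 genes was 14.42, 14.09 and 14.01 in WT, 14.32 in Qk-KO replicate 1, and 12.01 and 11.11 in Qk-KO replicates 2 and 3. Over the 87 nuclear genes whose mean normalized count was 20 or more, the mean was 9.07, 9.23 and 9.12 in WT, against 9.10, 9.45 and 9.53 in Qk-KO. The mitochondrial and nuclear messages of the same complexes thus differed from WT in opposite directions in the same 2 libraries. The gap between the 2 means was 4.86 to 5.35 in WT and 5.23 in Qk-KO replicate 1, and 2.57 and 1.58 in Qk-KO replicates 2 and 3. As a ratio of summed signal, mitochondrial over nuclear messages stood at 4.83 to 6.83 in WT and at 5.72, 2.07 and 1.12 in Qk-KO replicates 1, 2 and 3. The mitochondrial ribosomal RNA mt-Rnr1 followed the same order, at 20.32 to 20.90 in WT libraries and 20.58, 15.46 and 14.82 in Qk-KO. The ribosomal features outside the mitochondrial DNA were likewise far lower in Qk-KO replicates 2 and 3, as given above. Rn7sk, a nuclear RNA without a poly(A) tail, was 17.30 to 17.54 in WT, against 17.57, 17.89 and 17.77 in Qk-KO, and the mean over 65 replication-dependent histone genes was 6.42 to 7.23 in WT libraries and 6.63, 6.83 and 7.02 in Qk-KO.

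**Figure D1:**
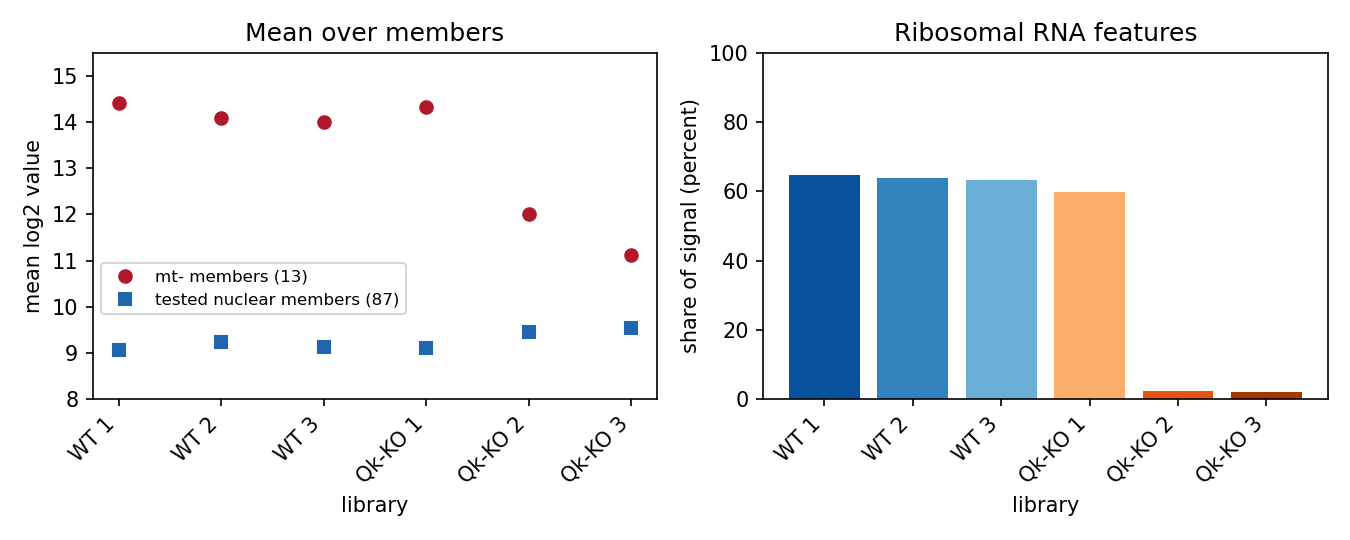
Left, mean log2 value of the 13 mt- genes (circles) and the 87 tested nuclear genes (squares) in each of the 6 libraries; right, percent of all signal that fell on 4 ribosomal RNA features, 1 bar per library. The mt- mean is 14.01 to 14.42 in the 4 libraries with 59.8% to 64.8% ribosomal signal and 12.01 and 11.11 in the 2 with 2.23% and 1.88%.

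No mitochondrial gene was called between the genotypes with the authors' scaling. All 13 had negative log2 changes (Qk-KO minus WT) over the 6 libraries, from -3.19 to -0.36 with a median of -1.70, against a median of 0.03 over all 15153 features tested. When values were scaled to library size in place of the authors' size factors, which moves the median of all features by 1.06, mt-Co1, mt-Co2, mt-Co3 and mt-Nd3 turned positive, at 0.43 to 0.70, the median of the 13 became -0.64, and 4 of the 13 were called lower. By limma with the authors' scaling and Benjamini-Hochberg adjustment, the lowest adjusted p was 0.0602, and 6 of the 13 had an unadjusted p under 0.05. Over all features 14.8% were called lower and 13.8% higher. The authors' deposited table called none of the 13 either, with log2 fold changes from -0.91 to -0.34, and it gives no adjusted p for mt-Nd6 (16.4% of features were called higher there and 16.3% lower). Those fold changes come from another model, which gave -0.36 ± 0.69 for mt-Nd6 where limma gave -2.59. The sizes in the 2 ranges are therefore not a like comparison. Qk-KO replicate 1 alone differed from WT by a median of 0.07 (range -0.20 to 0.62), was above the WT mean for 10 of the 13 and inside the WT range for 7 (28.7% of all features), and again none was called (6.17% of features were called higher and 9.37% lower in that contrast). In the same contrast 2 of the 13 had an unadjusted p under 0.05, both higher: mt-Nd3 and mt-Nd6.

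Qk-KO replicates 2 and 3 lay below all 4 other libraries for 12 of the 13 genes, a pattern found in 17.8% of all features. The exception was mt-Co3, for which Qk-KO replicate 2 (14.78) lay just above WT replicate 3 (14.77). Against WT without Qk-KO replicate 1, 11 of the 13 fell (limma, 18.4% of all features), and mt-Co1 and mt-Co3 did not pass. The term for library type in a model with genotype, which compares Qk-KO replicates 2 and 3 with Qk-KO replicate 1, had 9 of the 13 lower and none higher, against 0.957% and 0.0462% of all features. In that term the median difference was -3.08, and the range ran from -4.82 to -0.62. The differences were thus far from even over the 13 genes, as the values by complex show. The span between the most and the least abundant mitochondrial message was 5.41 to 5.91 log2 units in the 4 libraries rich in ribosomal RNA and 9.47 and 9.40 in Qk-KO replicates 2 and 3.

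Of the complex I genes, mt-Nd6 is the one message read from the opposite strand. It was 11.66, 11.25 and 11.14 in WT, 11.97 in Qk-KO replicate 1, and 7.44 and 6.86 in Qk-KO replicates 2 and 3. Its library-type difference was the largest of the 13, at -4.82 ± 0.29 (SE), a 28.2-fold lower level with an adjusted p of 0.00106. Its change over the genotypes was -2.59 ± 1.15 with an adjusted p of 0.126, and Qk-KO replicate 1 was the highest of all 6 libraries. Its rank in the library-type term rests on that library. Qk-KO replicates 2 and 3 against WT gave -4.20 for mt-Nd6, -4.72 for mt-Nd4l and -4.18 for mt-Atp6. mt-Nd4l was 12.26, 11.87 and 11.79 in WT, against 11.87, 7.75 and 6.75 in Qk-KO, a library-type difference of -4.62 ± 0.38 (24.5-fold, adjusted p 0.00468). Its overlapping neighbour mt-Nd4 was 15.40, 14.99 and 14.89 in WT libraries and 15.07, 12.01 and 11 in Qk-KO, a library-type difference of -3.56 ± 0.40 (11.8-fold, adjusted p 0.0109). The genes on either side of the 7 shared bases shown above were thus both lower in the same 2 libraries.

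mt-Nd5 was 15.27, 14.85 and 14.78 in WT, against 14.76, 11.75 and 10.81 in Qk-KO. It was the one mitochondrial gene whose genotype groups did not overlap (21.8% of all features were lower without overlap), by the narrow margin between Qk-KO replicate 1 and WT replicate 3, and its change of -2.52 ± 0.86 had the adjusted p of 0.0602 given above. mt-Nd2 was 14.82, 14.49 and 14.46 in WT libraries and 14.66, 11.47 and 10.48 in Qk-KO, with a library-type difference of -3.68 ± 0.37 (adjusted p 0.00867). The remaining 2 complex I genes differed less. mt-Nd1 was 15.28, 14.91 and 14.84 in WT, against 15.39, 13.70 and 12.64 in Qk-KO, and its library-type difference of -2.22 ± 0.41 did not pass (adjusted p 0.0673). mt-Nd3 was 11.44, 11.28 and 11.29 in WT libraries and 11.76, 10.60 and 10.13 in Qk-KO, with a library-type difference of -1.39 ± 0.21 (2.63-fold, adjusted p 0.0325). In the library-type term, complex I messages therefore ranged from a 2.63-fold to a 28.2-fold difference between the same libraries. Qk-KO replicates 2 and 3 against WT ranged from -0.97 for mt-Nd3 to -4.72 for mt-Nd4l.

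mt-Cytb, the catalytic cytochrome of complex III, was 16.02, 15.60 and 15.56 in WT, against 15.75, 13.91 and 13.10 in Qk-KO, with a library-type difference of -2.24 ± 0.36 (adjusted p 0.0431). The complex IV messages, which encode its 3 core subunits, had the smallest differences. mt-Co1 was 17.35, 17.02 and 16.95 in WT libraries and 17.17, 16.91 and 16.16 in Qk-KO. mt-Co3 was 15.04, 14.87 and 14.77 in WT, against 14.91, 14.78 and 13.82 in Qk-KO. For these 2 genes Qk-KO replicate 2 was close to the WT libraries and Qk-KO replicate 3 alone was clearly lower. Their library-type differences of -0.63 ± 0.40 and -0.62 ± 0.37 did not pass (adjusted p 0.474 and 0.448). mt-Co2 was 14.75, 14.38 and 14.27 in WT libraries and 14.61, 13.84 and 13.08 in Qk-KO, with a library-type difference of -1.15 ± 0.33 (adjusted p 0.182).

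The mitochondrial subunits of ATP synthase are read from 1 shared message. mt-Atp6 was 15.01, 14.81 and 14.65 in WT, against 15.05, 11.20 and 10.09 in Qk-KO, a library-type difference of -4.41 ± 0.41 (21.2-fold, adjusted p 0.00631). mt-Atp8 was 13.12, 12.85 and 12.72 in WT libraries and 13.25, 10.82 and 9.52 in Qk-KO, a difference of -3.08 ± 0.46 (8.46-fold, adjusted p 0.0345). mt-Atp6 lies between mt-Atp8 and mt-Co3 and shares 43 bases with the first and 1 base with the second, and mt-Atp6, mt-Atp8 and mt-Co3 had differences of 21.2-fold, 8.46-fold and 1.53-fold. With the reads of its identical nuclear copy, described below, added, mt-Atp6 stood at -3.01 ± 0.41, close to mt-Atp8. No copy was added to mt-Atp8, so this is not a like comparison. Across the 13 genes the library-type difference had a Spearman correlation of 0.29 with GC content, 0.25 with length and 0.35 with the WT mean, a description over genes of the same 6 libraries.

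**Figure D2:**
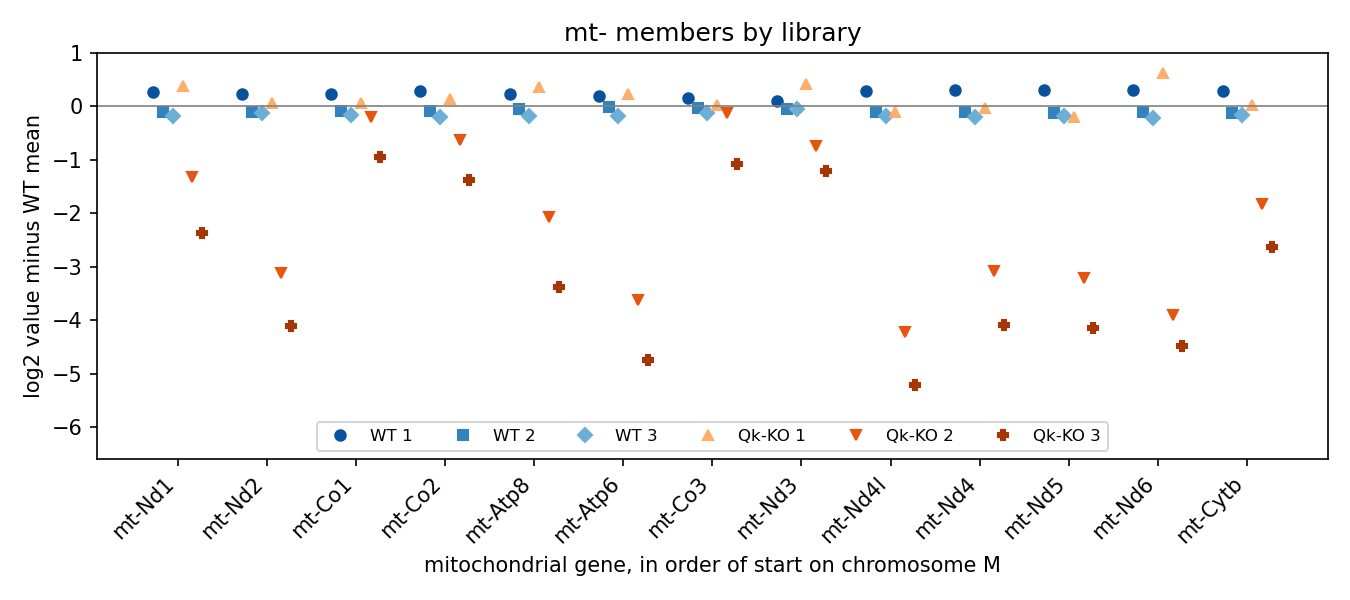
Log2 value minus the WT mean for each of the 13 mt- genes, in order of their start on chromosome M, with 1 symbol per library. WT libraries and Qk-KO replicate 1 sit within 0.62 of 0 for each gene, and Qk-KO replicates 2 and 3 are as low as -5.22 for mt-Nd4l but no lower than -1.08 for mt-Co1 and mt-Co3.

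The reads of mitochondrial messages can also be counted on nuclear copies of mitochondrial DNA. Of the 13 genes, 8 have an annotated nuclear copy of at least 95% identity over at least 50% of the gene, and 6 of these copies lie in 1 block of chromosome 1. The deposited table gave these copies levels like those of the genes themselves: Gm10925, identical to mt-Atp6, was 15.30, 15.12 and 15 in WT, against 15.34, 13.45 and 12.39 in Qk-KO. In the 4 libraries rich in ribosomal RNA it was 0.28 to 0.35 above mt-Atp6, and in Qk-KO replicates 2 and 3 it was 2.25 and 2.30 above it. For the copies of mt-Co2, mt-Co3, mt-Nd3 and mt-Nd4l the value stayed within 0.26 above that of the gene in every library. Gm28439, identical to mt-Nd4 over 63.6% of it, stood at -1.53 to -1.43 relative to the gene in the first 4 libraries and at -2.10 and -2.28 in Qk-KO replicates 2 and 3. The levels of the 6 genes with a chromosome 1 copy are uncertain for this reason. In contrast, the copies of mt-Co1 and mt-Nd5 on other chromosomes had far lower values than the genes. The search covered annotated copies only. On chromosome M, mt-Atp8 lies between mt-Co2 and mt-Atp6. On chromosome 1 the mt-Atp6 copy Gm10925 ends at 24614651 and the mt-Co2 copy Gm28661 starts at 24614885. Whether an unannotated copy of mt-Atp8 lies between them was not tested, so its level may be uncertain too. With each gene and its copy summed, mt-Atp6 became 16.16, 15.98 and 15.84 in WT libraries and 16.20, 13.73 and 12.66 in Qk-KO, and its library-type difference shrank from -4.41 to -3.01 (adjusted p 0.0246). That of mt-Nd4l was -4.61 after summing. The counts did not change: 9 of the 13 were lower by library type and none was called between the genotypes.

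**Figure D3:**
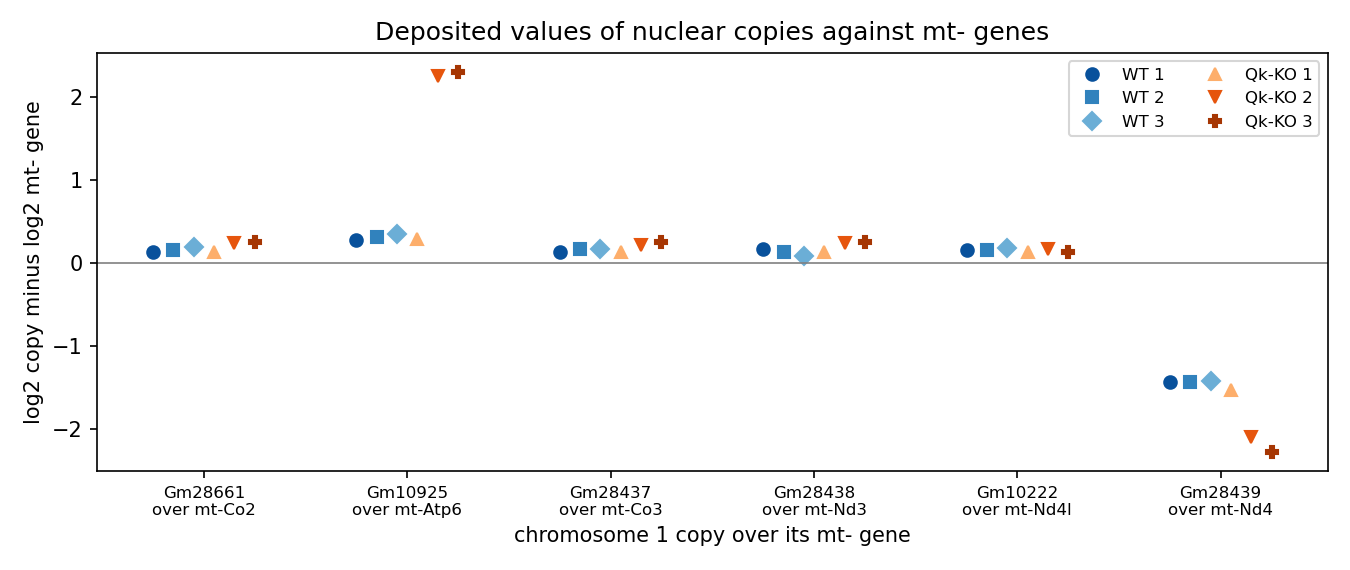
Log2 value of each chromosome 1 copy minus that of its mt- gene, 1 symbol per library, for the 6 copies with over 99% identity. The copies stand at nearly the same distance from the gene in all 6 libraries except Gm10925 over mt-Atp6, at 2.25 and 2.30 in Qk-KO replicates 2 and 3 against 0.28 to 0.35, and Gm28439 over mt-Nd4.

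Few of the nuclear genes were called between the genotypes. Of the 92, 87 were tested, and 5 complex IV isoforms were not: Cox6a2, Cox7a1 and Cox8b had too few reads, and Cox7b2 and Cox8c had none. By limma 7 rose in Qk-KO, 1 fell and 79 were not called, that is 8.05% and 1.15% where 13.8% and 14.8% of all features were called. Their median change was 0.27, against 0.05 over all tested nuclear protein-coding features. Of the 87, 71 were positive, against 7289 of those 13449 features. The authors' deposited table called 14 higher and 1 lower, and its 14 include all 7. The genotype groups did not overlap for 28 of the 87 genes, 23 higher and 5 lower, where 24.5% and 21.8% of all features showed this.

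The positive differences lay in Qk-KO replicates 2 and 3. The median difference from the WT mean was -0.01 in Qk-KO replicate 1, 0.37 in replicate 2 and 0.41 in replicate 3. Of the 87 genes, 42, 72 and 76 were above the WT mean in replicates 1, 2 and 3, against 52.1%, 52.5% and 52.6% of all features. Both deeper libraries lay above all 4 others for 64 of the 87 genes, or 73.6%, a pattern seen in 23.2% of all features, and below them for 2, Ndufab1 and Cox6b2. Without Qk-KO replicate 1, 40 of the 87 rose and none fell (18.7% and 18.4% of all features). In contrast, Qk-KO replicate 1 against WT gave no rise and 1 fall, and the genotype term with library type in the model gave no rise and 2 falls (5.76% and 9.14% of all features). The library-type term was positive for 82 of the 87, with a median of 0.36, but passed the test for 1. Over all 15153 features it was positive for 8301, with a median of 0.04, and 0.0462% were called higher.

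**Figure D4:**
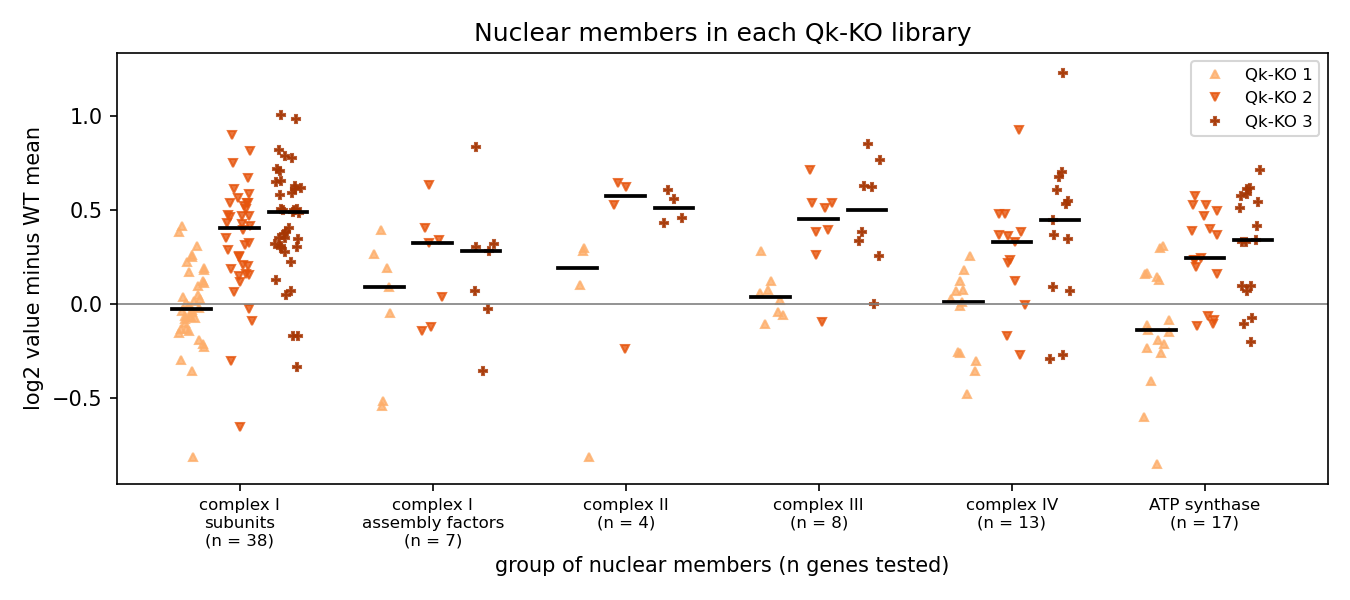
Log2 value minus the WT mean for every tested nuclear gene, by complex, in Qk-KO replicates 1, 2 and 3 (points, spread sideways at random), with black bars at the medians. The medians of replicate 1 lie between -0.14 and 0.19, and those of replicates 2 and 3 between 0.25 and 0.57 in all 6 groups.

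Complex I has its nuclear subunits in a membrane arm and in a peripheral arm, where NADH is oxidised. Of the 38 tested genes grouped by symbol as its subunits, Ndufa4 and Ndufa4l2 among them, 3 rose, 1 fell and the median change was 0.31. Ndufv2 and Ndufv3, which rose, belong, like the core subunit Ndufv1, to the NADH-oxidising module. Ndufv2 was 9.70, 9.82 and 9.59 in WT libraries and 10.09, 10.17 and 9.999 in Qk-KO, a change of 0.38 ± 0.11 (adjusted p 0.0389) that was of the same size, 0.38, in Qk-KO replicate 1 alone (adjusted p 0.155). Every Qk-KO library of Ndufv2 was above every WT library. Ndufv3 was 9.25, 9.21 and 9.30 in WT, against 9.50, 9.68 and 9.87 in Qk-KO (0.43 ± 0.13, adjusted p 0.0376). Ndufv1 itself was 10.24, 10.56 and 10.29 in WT libraries and 10.48, 10.93 and 11.01 in Qk-KO, and its groups overlapped (0.44, adjusted p 0.0795). Of 7 complex I assembly factors 1 rose: Ndufaf3 was 7.82, 8.21 and 7.58 in WT, against 8.26, 8.50 and 8.71 in Qk-KO (0.62 ± 0.20, adjusted p 0.0491). Exons of Ndufaf3 share 48 bases with Impdh2 on the opposite strand, and reads there cannot be told apart.

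The gene of the complex I group that fell was Ndufa4l2, placed there by its symbol. It is a paralog of Ndufa4 known as a target of the hypoxia response and as a transcript of mural cells, which wrap small vessels. It was 6.72, 6.43 and 6.78 in WT libraries and 5.83, 5.99 and 6.30 in Qk-KO, a change of -0.60 ± 0.18 (adjusted p 0.0417) and of -0.82 in Qk-KO replicate 1 alone (adjusted p 0.0742). All Qk-KO libraries were below all WT libraries. The summed log2 level of 8 mural markers fell alongside, from 14.20 to 14.47 in WT to 13.26 to 13.35 in Qk-KO, with 7 of the 8 called lower and none at 0, and that of 8 endothelial markers was 14.46 to 14.9996 in WT and 13.68 to 13.82 in Qk-KO. Their part in the fall of Ndufa4l2 was not tested. With library size scaling Ndufa4l2 turned to 0.45 with an adjusted p of 0.526, and no mural or endothelial marker was called. Relative to the median of all features, the medians of the mural and endothelial lists were -0.84 and -0.95 with either scaling.

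Complex II, with no mitochondrial subunit, had 1 of 4 genes called. Sdha, the flavoprotein that oxidises succinate (chromosome 13, 74322254 to 74350280, minus strand), was 12.12, 12.07 and 12.08 in WT, against 12.39, 12.71 and 12.52 in Qk-KO. The WT libraries were nearly equal and all Qk-KO libraries were higher, by 0.45 ± 0.12 (adjusted p 0.0262). Sdhb, the iron-sulfur subunit, was 9.85, 9.81 and 9.91 in WT libraries and 9.96, 10.38 and 10.42 in Qk-KO, and also did not overlap, but missed the threshold (0.39 ± 0.14, adjusted p 0.0743). The membrane anchors differed from each other. Sdhd was 9.07, 9.62 and 9.29 in WT, against 9.61, 9.97 and 9.93 in Qk-KO (0.51 ± 0.17, adjusted p 0.0584), and Sdhc was 9.37, 10.18 and 10.003 in WT libraries and 9.03, 9.61 and 10.31 in Qk-KO (-0.20 ± 0.33, adjusted p 0.679).

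None of the 8 tested complex III genes was called, and their median change was 0.36. Uqcrc1, a core protein of the complex, was 10.77, 10.87 and 10.82 in WT, against 10.76, 11.36 and 11.44 in Qk-KO (0.37, adjusted p 0.158). Qk-KO replicate 1 was at the WT level and the 2 others above it. Uqcrc2, the second core protein, changed by 0.24 (adjusted p 0.175).

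Of the 13 tested complex IV genes 1 rose, and their median change was 0.21. Cox7a2l, which links complexes III and IV into larger assemblies (chromosome 17, 83501918 to 83517330, minus strand), was 9.57, 9.49 and 9.45 in WT libraries and 9.75, 10.43 and 10.73 in Qk-KO. It had the largest rise of the nuclear genes, 0.80 ± 0.23 (adjusted p 0.0326). Most of it lay in Qk-KO replicates 2 and 3, since Qk-KO replicate 1 was only 0.25 above the WT mean (adjusted p 0.319). Cox4i1, the main form of the regulatory subunit 4, was 11.22, 11.34 and 11.22 in WT, against 11.25, 11.74 and 11.94 in Qk-KO (0.38 ± 0.18, adjusted p 0.138). Ndufa4, named for complex I but known as a complex IV subunit, changed by 0.23 ± 0.18 (adjusted p 0.358).

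ATP synthase had 1 of 17 genes called. These were grouped by symbol and include Atp5s and Atp5sl, which RefSeq names Dmac2l and Dmac2. Atp5f1, a subunit of its peripheral stalk (chromosome 3, 105942698 to 105960099, minus strand), was 10.60, 10.61 and 10.69 in WT libraries and 10.93, 11.10 and 11.05 in Qk-KO, a rise of 0.39 ± 0.10 (adjusted p 0.0239) without overlap. Its exons share 337 bases with those of Wdr77 on the opposite strand. The catalytic core was not called. Atp5a1 was 12.74, 12.84 and 12.78 in WT, against 12.95, 13.36 and 13.37 in Qk-KO (0.44 ± 0.15, adjusted p 0.0582), and Atp5b was 12.86, 13.06 and 12.98 in WT libraries and 12.88, 13.49 and 13.58 in Qk-KO (0.35 ± 0.20, adjusted p 0.21).

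Atp5g1, a gene for the ring subunit c, was the 1 nuclear gene that passed within the libraries rich in ribosomal RNA. It was 9.44, 9.53 and 9.45 in WT and 8.87 in Qk-KO replicate 1, lower by 0.60 there (-0.60 ± 0.16, adjusted p 0.0409), but 9.63 and 9.81 in Qk-KO replicates 2 and 3. Over all 6 libraries its change was -0.04 (adjusted p 0.923). Atp5e, a small subunit of the central stalk chosen here after its values were seen, showed the same order, at 8.27, 8.77 and 8.39 in WT, against 7.62, 9.01 and 9.19 in Qk-KO. Its library-type difference of 1.48 ± 0.24 was the only one of a nuclear member to pass (adjusted p 0.048). In both genes the Qk-KO libraries lay on both sides of WT.

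**Figure D5:**
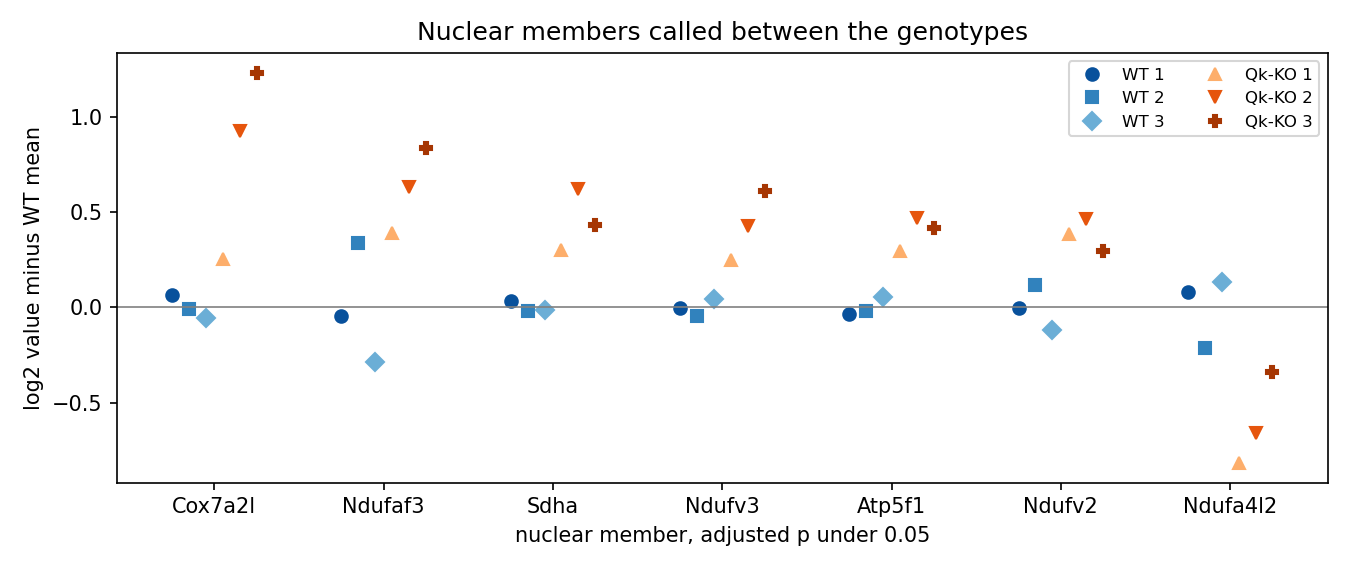
Distance from the WT mean (log2) of 7 nuclear genes with an adjusted p under 0.05, 1 symbol per library. For each gene the Qk-KO libraries lie on 1 side of all WT libraries, and for all but Ndufv2 and Ndufa4l2 Qk-KO replicate 1 is the Qk-KO library nearest to WT.

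None of the 8 calls was kept when Qk-KO replicates 2 and 3 were left out or library type was put in the model. All 8 were lost also when Qk-KO replicate 2 or either of WT replicates 1 and 3 was left out, and for the 7 genes shown the highest adjusted p over the 6 omissions lay between 0.104 for Cox7a2l and 0.154 for Ndufaf3. The changes themselves kept their direction and much of their size over the omissions, with Atp5f1 at 0.36 to 0.44, Ndufv2 at 0.32 to 0.44, Sdha at 0.37 to 0.53 and Cox7a2l, the most variable, at 0.59 to 1.08. In Qk-KO replicate 1 alone Sdha was at 0.30 (adjusted p 0.168), Atp5f1 at 0.30 (adjusted p 0.185), Ndufv3 at 0.25 (adjusted p 0.341) and Ndufaf3 at 0.39 (adjusted p 0.39).

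Several nuclear subunits come as a general form and a tissue-specific form, and per kilobase of exon the general form was the more abundant in every library. Cox4i1 was 35.1 to 43.3 times Cox4i2 in WT and 52.9 to 74.9 times in Qk-KO. Cox4i2, a form known from lung and from cells of vessel walls, was 5.05, 4.92 and 5.11 in WT libraries and 4.55, 4.86 and 4.73 in Qk-KO, and its groups did not overlap but the change of -0.31 ± 0.14 was not called (adjusted p 0.134). Ndufa4 was 3.83 to 5.75 times Ndufa4l2 in WT and 7.51 to 8.30 times in Qk-KO. Both ratios were higher in all Qk-KO libraries than in all WT libraries, and in both the minor form is the one associated with vessels, whose markers fell as given above; their part in the ratios was not tested. The other ratios overlapped between the genotypes. All ratios come from the per-library values, which behave as values shrunk toward the mean of a gene with few reads. Cox6a2, Cox7a1 and Cox8b had too few reads to be tested, so the size and genotype difference of their ratios are uncertain. For Cox4i2 the authors' deposited table gave a log2 fold change of -0.87, also not called, where limma gave -0.31. Cox6a1 was 119 to 140 times the muscle form Cox6a2 in WT and 82.6 to 149 times in Qk-KO, Cox7a2 was 27.1 to 30.2 and 29.8 to 42.5 times the muscle form Cox7a1, and Cox8a was 40.9 to 65.7 and 45.6 to 74.1 times the muscle form Cox8b. Cox6b1 was 21.5 to 27.7 and 24.7 to 44.9 times the testis form Cox6b2. Messages for the ring subunit c came mostly from Atp5g2 and Atp5g3, with Atp5g3 at 0.992 to 1.70 times Atp5g2 and 3.32 to 4.11 times Atp5g1 in WT, and at 0.708 to 1.12 and 2.51 to 4.63 times in Qk-KO.

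Some promoters of the nuclear genes held motifs of known regulators of respiratory genes. RefSeq promoter windows (GRCm38.p6, 300 bases around the start) were matched for 76 of the 92 genes. The NRF1 motif, searched on both strands with 1 free base in its middle, was in 19 of the 76 (25%), against 5.19% of the windows of all 27025 genes. NRF1 is a transcription factor named for its role in respiratory genes. The YY1 motif was in 5 (6.58%, against 0.755%), the GABPA motif CCGGAAGT in 5 (6.58%, against 4.31%) and the ESRRA motif TCAAGGTCA in 2 (2.63%, against 0.466%). The promoter of Sdha is shown because it was the 1 called gene with an NRF1 match. The match occurs 3 times before its start, and the first 2, which lie outside the annotated gene, are in capitals (GRCm38.p6, minus strand).
Sdha, chr13:74350281-74350360: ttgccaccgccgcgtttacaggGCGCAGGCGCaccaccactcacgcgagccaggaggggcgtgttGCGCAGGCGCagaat
The matches begin 98, 55 and 10 bases before the RefSeq start. Ndufa4l2 had no window, and the windows of Atp5f1, Cox7a2l, Ndufaf3, Ndufv2 and Ndufv3 held none of the 4 motifs. A match is a run of letters and not a measured binding site.

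Genes that serve the complexes but lie outside the set were read from lists of known members, against the 13.8% of all features that rose and the 14.8% that fell. Of 19 complex IV assembly factors 6 rose and none fell, with a median change of 0.30. Surf1, an assembly factor of the mt-Co1 subunit, rose by 0.58 ± 0.12 (adjusted p 0.0115), and Pet100 by 0.70 ± 0.14 (adjusted p 0.00973). Of 77 mitochondrial ribosomal proteins 14 rose and none fell, with a median of 0.30, among them Mrpl39 (0.68, adjusted p 0.00575) and Mrpl20 (0.73, adjusted p 0.011). Their medians in Qk-KO replicates 1, 2 and 3 were 0.11, 0.35 and 0.38, the same order as in the nuclear subunits. Of 11 membrane and import genes 3 rose, among them Immt (0.47 ± 0.13, adjusted p 0.029) and Vdac3 (0.55 ± 0.14, adjusted p 0.0223). Of 14 other assembly factors 1 rose, Atpif1, the inhibitor of ATP synthase (0.75 ± 0.18, adjusted p 0.0179), and of 8 electron carriers and complex III factors none was called. None of these rises was called in Qk-KO replicate 1 alone.

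Of 15 genes for the upkeep and transcription of mitochondrial DNA 1 rose and none fell. Lrpprc, which stabilises mitochondrial messages, was the one, at 0.51 ± 0.11 (adjusted p 0.0129). Lrpprc was not called in Qk-KO replicate 1 alone or with library type in the model. Among 8 regulators of respiratory genes 1 was called. Ppargc1a, the coactivator PGC-1alpha, was 9.61, 9.61 and 9.55 in WT, against 7.59, 7.26 and 6.68 in Qk-KO, a fall of 2.42 on the log2 scale (-2.42 ± 0.22, adjusted p 0.000287). It passed also in Qk-KO replicate 1 alone, at -2.00 (adjusted p 0.000424). Of 13 citric acid cycle genes 3 fell and none rose. Idh3a, the catalytic subunit of the NAD-linked isocitrate dehydrogenase, was 10.04, 9.97 and 9.99 in WT libraries and 9.13, 9.25 and 9.16 in Qk-KO (-0.82 ± 0.10, adjusted p 0.0012). Suclg2, a subunit of the GTP-forming succinate-CoA ligase, was 8.68, 8.61 and 8.69 in WT, against 7.53, 7.73 and 8.08 in Qk-KO (-0.88 ± 0.17, adjusted p 0.00682). Both were lower in every Qk-KO library than in every WT library and passed also in Qk-KO replicate 1 alone (-0.87, adjusted p 0.0078, and -1.12, adjusted p 0.00774). The third was Cs, the citrate synthase, with a change of -0.42 (adjusted p 0.0309), and it did not pass in Qk-KO replicate 1 alone. With library size scaling none of Ppargc1a, Idh3a and Suclg2 was called: Ppargc1a was at -1.36 (adjusted p 0.0775), Idh3a at 0.24 and Suclg2 at 0.18. That scaling shifts all features alike, and relative to their median the 3 genes remained at -2.45, -0.85 and -0.91. The summed log2 level of the 10 astrocyte markers was 17.11 to 17.44 in WT and 14.20 to 14.87 in Qk-KO, with 9 of the 10 called lower and none at 0, and with library size scaling 5 were called lower and 1 higher. The part of these other cells in the falls was not tested.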

How the data were processed

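Total RNA of 6 libraries was sequenced. The submitters' processing notes name the build mm10 and the tools FastQC, TopHat2 2.0.14, DESeq2 and featureCounts. Not given in the sources used here are annotation release and strand setting. The deposited per-library values are log2 values that behave as regularized log2 values, exactly 0 where no library has a read. The deposited table also holds a signal, the authors' normalized count averaged over the 6 libraries. The authors' comparison gives log2 fold changes, a Wald score and p-values, per the file headers. Of 46983 features 20968 had no read, and 46488 identifiers were found in GENCODE M21.

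The count test planned for counts was not used. limma 3.58.1 (R 4.3.3) with a mean-variance trend was fitted to the deposited log2 values, with no pseudocount, over the 15153 features whose mean normalized count was 20 or more. Every adjusted p is limma's Benjamini-Hochberg value over all of them, unless credited to the authors' deposited table, and values under 0.05 are called. With 15153 features, limma was also run on data simulated for the 6-library comparison. There it called 90.9% of changes of 2 log2 units, 49.3% of 1 and 5.97% of 0.5, and 4.90% of calls were false. The share of simulated features given a change was far smaller than the share called in the measured libraries, and the Benjamini-Hochberg adjustment depends on that share. Whether these rates hold for the measured libraries, which also differ in library type within Qk-KO, was not tested.

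Library type was split at 10% ribosomal signal. Depth was estimated from the steps of the mean normalized counts. The members, lists and naming rule were chosen with earlier results of these data known. Named genes are all mt- and complex II genes, up to 4 called genes per direction and the 2 most abundant in each other group, the isoform pairs, and up to 2 called genes per outside list. A gene that this rule selects is not reported here. Alternatives were other filters, scalings, a pseudocount of 10, no trend, a replicate block, library type, and omitted libraries. All tests were two-sided. Removal of length and GC trends and summing with nuclear copies were added after seeing the data. Copies were searched with blastn in GENCODE M21 transcripts. Of the nuclear genes 7 have such a copy, none of them called.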

Additional observations from a re-analysis of the deposited data

How the results depend on the processing

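The count of nuclear genes that rose, 7, became 14 in the authors' deposited comparison, 17 when values were centred on nuclear protein-coding genes, 14 with library size scaling, 2 without a filter on low values, and 0 both with library type in the model and in the libraries rich in ribosomal RNA alone. Leaving out 1 library each gave 0 to 40: 40 when Qk-KO replicate 1 was omitted, 3 for Qk-KO replicate 3, and 0 for Qk-KO replicate 2, WT replicate 1 or WT replicate 3. The nuclear genes that fell, 1, became 2 with length and GC trends removed and with library type. They became 0 with library size scaling and without a filter, and were 0 to 1 over the omissions. With a mean of at least 100 they were also 0, because that filter removed Ndufa4l2 from the test. The mt- genes that fell, 0, became 4 with library size scaling and 0 to 11 over the omissions, 11 being without Qk-KO replicate 1. No setting called an mt- gene higher. The nuclear median of 0.27 became 1.33 with library size scaling, 0.24 above the median of all features as before, and 0.21 to 0.38 over the omissions. The mt- median of -1.70 was -2.72 to -0.90 over the omissions and 0.07 with library type in the model.

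Over all features 2087 rose, 873 with library type and 935 in the libraries rich in ribosomal RNA, and 929 to 2840 over the omissions. Falls numbered 2243, 1385 with library type, 1420 in the rich libraries and 1441 to 2793 over the omissions. The authors' comparison gave 2491 rises and 2464 falls over all features, and centring on nuclear protein-coding genes gave 2619 and 2079. Library size scaling gave 2382 rises and 65 falls, so 97.3% of calls were rises in place of 48.2%. That scaling, whose totals include the ribosomal features, adds 1.06 to the change of every feature, and so it turned Ndufa4l2 to 0.45. The causes of the other shifts were not tested.

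With the replicate number as a block, 10 nuclear genes rose, 1 fell and 5 mt- genes fell. Over all features 2091 rose and 2254 fell in that setting. Deviations from the group mean correlated at 0.10, 0.0046 and 0.08 between same-numbered libraries, so the numbers were not taken as pairs. Not every library's deviations correlated best with those of its own number. The estimated depth limits the 4 libraries rich in ribosomal RNA most, and values of weakly expressed genes such as Cox6a2 and Cox7a1 are least precise there.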
